A study of Mus musculus with 8 samples.

Results

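*Etv1*, *Etv4*, *Etv5*, *Egr1*, *Egr2*, *Egr3*, *Fos* and *Fosl1* encode 8 transcription factors that growth factor signaling is known to induce, and they were picked by symbol from the 17167 genes of an RNA-seq experiment on cultured undifferentiated spermatogonia. All 8 were found, and 7 had enough counts for the test across genes. The cultures came from the adult testes of wild-type mice, with spermatogonia enriched through CD9 and grown on inactivated mouse embryonic fibroblast feeders with GDNF, basic FGF and EGF. The sample labels name the strain as CBA/J, whereas the supplemental procedures describe wild-type mice as C57BL/6J. Feeders were depleted by letting them adhere to plastic before treatment, which took place on Geltrex. Each of 4 cultures from individual mice then received DMSO as vehicle or the pan-ID inhibitor AGX51 at 80 µM for 20 h (the labels write 80 mM), giving 4 vehicle and 4 AGX51 libraries.

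ETV1, ETV4 and ETV5 form the PEA3 group of ETS factors, which bind sites with a GGAA core and act downstream of FGF and GDNF receptors. ETV5 is required in mice for lasting maintenance of spermatogonial stem cells (SSCs) and is induced by GDNF in culture. The early growth response factors EGR1, EGR2 and EGR3 are zinc finger proteins that bind GC-rich sites and, like the AP-1 component FOS, are products of immediate-early genes, which are transcribed within minutes of receptor activation through ERK, ELK factors and SRF. FOSL1, also called FRA1, is an AP-1 component that ERK induces more slowly. ID proteins, the targets of AGX51, hold E-proteins off E-boxes, whose letters are CANNTG.

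Library totals were 8330176 to 9586105 counts in vehicle and 4303318 to 8441399 in AGX51, and levels are given as CPM, the deposited counts scaled to a common library total. All 9 listed spermatogonial markers had counts. Of the 9 tested 3 were lower with AGX51 (*Dazl*, *Gfra1* and *Cdh1*), where 9.93% of all tested genes were, and 0 were higher. *Uchl1* was at a log2 fold change of 0.47 (edgeR adjusted p = 0.00131), under a fold of 1.5. The summed level of the 9 was 1392 to 1733 CPM in vehicle and 782.9 to 1072 CPM in AGX51, higher in 0 of 4 cultures. Within it *Dazl* averaged 833.1 CPM in vehicle and 338.9 CPM in AGX51. Fibroblast markers, the feeder cell type, were present too: 23 had counts in the table, their summed level was 4940 to 7921 CPM in vehicle and 6595 to 11600 CPM in AGX51, and it was higher in 4 of 4 cultures. By that test, 10 of these 23 were higher, where 8.57% of all tested genes were, and *Twist1* was lower. The part of fibroblast RNA in the results was not tested beyond a fit in which their mean entered as a covariate. The Sertoli markers *Amh* and *Cldn11* and the Leydig markers *Cyp17a1*, *Insl3* and *Hsd3b1* were not among the genes listed. Nor were the leukocyte marker *Ptprc* and the macrophage markers *Adgre1* and *Csf1r*. Other markers of somatic cells had counts. The Sertoli genes *Sox9* and *Rhox5* averaged 29.9 and 2.49 CPM in vehicle and were not called. The macrophage gene *Cd68* (log2 fold change 0.85, adjusted p = 0.00169) and the Leydig gene *Star* (0.75, adjusted p = 0.039) were higher. Each was the only marker of its cell type among the genes listed, and *Star* averaged 3.01 CPM in vehicle and 4.70 CPM in AGX51. Of the endothelial genes *Kdr* was lower (-2.57, adjusted p = 0.00014) and *Pecam1* was not called (-0.24, adjusted p = 0.572), while *Cdh5* and *Tek* had too few counts for the test. The part of somatic cell RNA in the results was not tested. A gene was called when edgeR's quasi-likelihood test gave a Benjamini-Hochberg adjusted p under 0.05 over 14428 tested genes and the fold change exceeded 1.5. Of all calls 46.3% were higher with AGX51, and 35.2% when library totals replaced TMM scaling. Fitted fold changes use TMM scaling, whereas percentages of vehicle and log2 ratios of AGX51 to vehicle CPM rest on library totals. In bulk RNA, fewer cells of a type and less RNA per cell cannot be told apart.

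The ETS members *Etv4* and *Etv5* and the EGR members fell with AGX51. *Etv1* had too few counts for the test, and the AP-1 members did not pass it. Of the 7 tested members 5 were called lower, namely *Etv4*, *Etv5*, *Egr1*, *Egr2* and *Egr3*, whereas 9.93% of all tested genes were. None was called higher, none of the members had an unadjusted p under 0.05 in that direction, and neither DESeq2 nor limma-voom called any higher. For the 5 called genes, the vehicle and AGX51 libraries did not overlap, which held in the same direction for 17.9% of tested genes (28.5% in either direction). The members were chosen with earlier results of these data known, so their count is a description.

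*Etv4*, on chromosome 11 from 101769742 to 101785371, encodes PEA3, the founding member of its group. Its level was 62.1, 53.9, 66.1 and 44.9 CPM in vehicle replicates 1 to 4 and 26.8, 33.2, 23.4 and 25.4 CPM in the AGX51 replicates. Every AGX51 library lay below every vehicle library, and AGX51 left 47.9% of the mean vehicle level. Mean levels were 56.8 ± 9.42 and 27.2 ± 4.26 CPM (SD, n = 4), and edgeR put the log2 fold change at -0.998, with a standard error of 0.13 and an adjusted p of 0.00015.

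*Etv5* lies on chromosome 16 from 22381309 to 22439719. It stood at 45.5, 41.7, 49.5 and 37.8 CPM in vehicle and at 25.2, 19.3, 22.7 and 20.6 CPM in AGX51, by replicate. All AGX51 libraries were again below all vehicle libraries, with 50.4% of the vehicle mean retained. Mean levels were 43.6 ± 5.02 and 21.96 ± 2.59 CPM (SD, n = 4), and the log2 fold change was -0.90 (standard error 0.13, adjusted p = 0.000274). Within cultures the change was uniform, with log2 ratios of AGX51 to vehicle CPM between -1.12 and -0.85.

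The stretch before the outermost annotated exon of *Etv5* is printed because AGX51 acts on the partners of E-box binding proteins and this member fell. Sequences are those of RefSeq on GRCm38.p6, whose promoter table held 4 of the 8 members (*Etv1*, *Etv5*, *Egr2* and *Fos*). It covers chr16:22439720-22439820, minus strand, 101 bases, and capitals mark E-boxes.
Etv5: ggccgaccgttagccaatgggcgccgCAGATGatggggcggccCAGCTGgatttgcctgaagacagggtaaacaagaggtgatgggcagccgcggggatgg
This stretch held 2 E-boxes, CAGATG and CAGCTG. For a gene with several starts, the window with the most matches to the marked motifs was printed, so its matches were selected for. An E-box was present in 66.2% of the 32851 RefSeq windows of 250 bases before a start. Those windows are longer than the printed stretch, and the presence of an E-box alone sets no promoter apart. Members not called lower held E-boxes too. The 250-base window of *Fos*, which was not called, held 2. For *Etv1*, which had too few counts for the test, the window chr12:38783461-38783710 held 3 and that of its other start held 0. A link between E-boxes and the falls was not tested. The 250-base window of the other *Etv5* start held no E-box and 4 GGAA cores (either strand), a motif found in 93.4% of windows. Matches of letters are descriptions and do not show binding.

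*Etv1*, on chromosome 12 from 38779380 to 38870484, was counted 5 to 17 times in each vehicle library and 2 to 18 times in each AGX51 library, which was too few for the count filter. Its levels were 0.548, 1.2, 1.11 and 1.77 CPM in vehicle and 1.10, 0.465, 0.403 and 2.13 CPM in AGX51. The groups overlapped, with AGX51 higher in 2 cultures and lower in 2. On the log2(CPM + 0.5) scale the difference was -0.21 (exact permutation test, two-sided, p = 0.6), and with no count filter edgeR put it at 0.01 with a standard error of 0.52 (adjusted p = 0.99). That standard error exceeded the 0.13 of *Etv4*, and whether a change of the size seen in *Etv4* could have been found here was not tested.

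The ratio of *Etv4* to *Etv5* counts within a library, which no scaling factor can alter, was compared between groups as 1 of 7 such pairs within the 3 families. It differed by -0.07 on the log2 scale (standard error 0.17; exact permutation test, two-sided, p = 0.8, adjusted p = 0.8 over 7 pairs), and its sign turned when AGX51 replicate 1 or 3 was left out (0.0017 and 0.02). The *Etv4* to *Etv1* ratio differed by -0.76 (standard error 0.69) and the *Etv5* to *Etv1* ratio by -0.69 (0.64), with exact permutation p-values of 0.371 and 0.429 and an adjusted p of 0.6 for each. Within cultures the *Etv4* to *Etv5* difference ran from -0.38 to 0.41, and the wide spread of *Etv1* limits how far its pairs can be read.

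**Figure D1:**
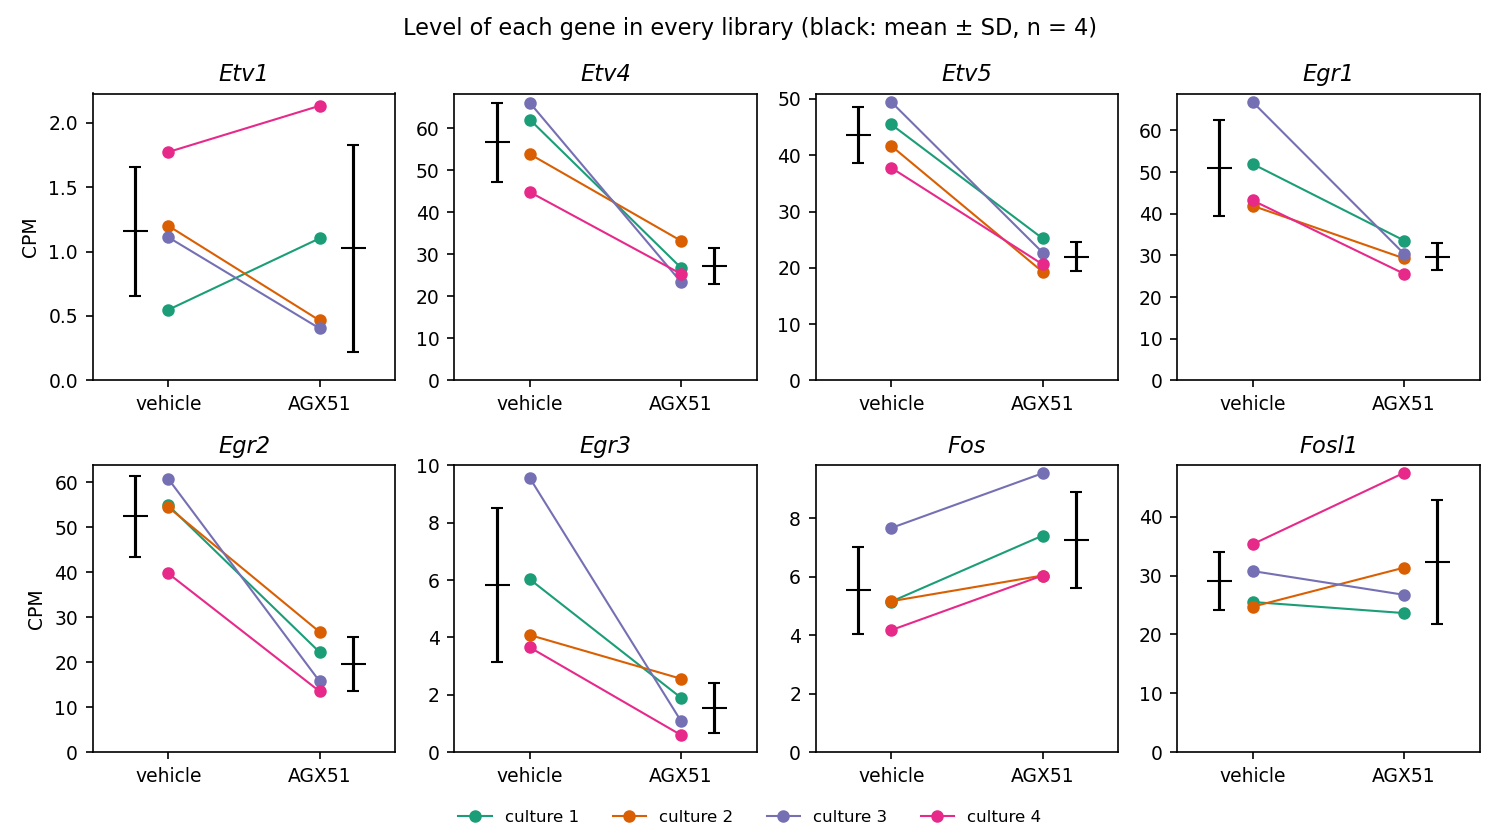
CPM (y axis, linear, from 0) of each of the 8 genes in vehicle and AGX51 libraries, with lines joining the libraries of a culture and black marks for the mean ± SD of 4 libraries. In *Etv4*, *Etv5*, *Egr1*, *Egr2* and *Egr3* all AGX51 points sit below all vehicle points, whereas in *Etv1*, *Fos* and *Fosl1* the groups overlap.

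Among the early growth response genes, *Egr2* fell with the smallest adjusted p and *Egr3* with the steepest fold change. *Egr2*, on chromosome 10 from 67535475 to 67542188 and also known as Krox20, encodes a regulator of myelination and hindbrain segmentation. It was at 54.9, 54.5, 60.8 and 39.7 CPM in vehicle and at 22.2, 26.7, 15.7 and 13.5 CPM in AGX51. The highest AGX51 library did not reach the lowest vehicle library. Mean levels were 52.5 ± 8.97 and 19.5 ± 6.05 CPM (SD, n = 4), so that 37.2% of vehicle remained, and the log2 fold change was -1.38 (standard error 0.17, adjusted p = 0.000123).

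*Egr3* lies on chromosome 14 from 70077203 to 70082614 and encodes a factor known from muscle spindle development and lymphocytes. It rested on few reads, with 55, 34, 86 and 35 counts in vehicle and 12, 11, 8 and 5 in AGX51. Its levels of 6.03, 4.08, 9.56 and 3.65 CPM in vehicle were all above the 1.89, 2.56, 1.07 and 0.592 CPM in AGX51. The log2 fold change was -1.96 (standard error 0.41, adjusted p = 0.00306), and within cultures the log2 ratio ranged from -3.15 to -0.68. By size of fitted fall it ranked 86 of the 1432 genes called lower, the highest place among the members, and in the fit with the fibroblast covariate its log2 fold change was -1.28 (adjusted p = 0.0415, the largest of 18 alternatives, with 6.43e-05 the smallest).

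*Egr1*, the most widely studied gene of the family, lies on chromosome 18 from 34859823 to 34864984. Vehicle libraries held 51.9, 41.9, 66.8 and 43.2 CPM and AGX51 libraries 33.6, 29.3, 30.4 and 25.6 CPM. The groups did not overlap, and 58.3% of the vehicle mean remained. Mean levels were 50.95 ± 11.5 and 29.7 ± 3.29 CPM (SD, n = 4), and the log2 fold change was -0.70 (standard error 0.15, adjusted p = 0.00307). This call lay near the fold threshold: without vehicle replicate 3, the highest library, the log2 fold change was -0.55 (adjusted p = 0.0131), and in the fit with the fibroblast covariate it was -0.53 (adjusted p = 0.0261), both short of a fold of 1.5. Over all 18 alternatives its adjusted p ran from 5.73e-06 to 0.0261.

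The 3 genes were also compared with each other by their ratios within a library. The log2 ratio of *Egr1* to *Egr2* was -0.05 ± 0.24 in vehicle and 0.65 ± 0.38 in AGX51 (SD), higher in 4 of 4 cultures (difference 0.70, standard error 0.22; exact permutation test, two-sided, p = 0.0571, adjusted p = 0.2 over 7 pairs). Within cultures that difference lay between 0.51 and 0.81 (SD 0.14 over 4 cultures), so that *Egr2* fell further than *Egr1* in each. The ratio of *Egr1* to *Egr3* was also higher in 4 of 4 cultures, by 1.202 (standard error 0.43), with the same p and adjusted p, and ran from 0.12 to 1.94 within cultures. That of *Egr2* to *Egr3* differed by 0.50 (standard error 0.32; exact permutation p = 0.2, adjusted p = 0.467). With 4 libraries against 4 the smallest p is 0.0286, which for a pair standing alone becomes 0.2 after adjustment over 7 pairs, and the exact sign-flip test over 4 cultures cannot go below 0.125. Neither test could therefore have called a single pair.

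The promoters of *Egr2* and *Fos*, immediate-early genes of which the first fell and the second was not called, are printed for the sites through which that class is known to be read, the CArG box bound by SRF and the letters TGACG of a cyclic AMP response element. Each line gives the 250 bases before a start outside any annotated exon of its gene, at chr10:67537619-67537868 for *Egr2* and chr12:85473640-85473889 for *Fos*, both on the plus strand, and capitals mark CArG boxes and TGACG on either strand.
Egr2: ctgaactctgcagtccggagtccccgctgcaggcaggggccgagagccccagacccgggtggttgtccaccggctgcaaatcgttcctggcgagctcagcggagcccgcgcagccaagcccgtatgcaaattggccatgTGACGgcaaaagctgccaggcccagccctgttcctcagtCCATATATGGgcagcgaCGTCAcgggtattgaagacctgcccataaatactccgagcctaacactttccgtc
Fos: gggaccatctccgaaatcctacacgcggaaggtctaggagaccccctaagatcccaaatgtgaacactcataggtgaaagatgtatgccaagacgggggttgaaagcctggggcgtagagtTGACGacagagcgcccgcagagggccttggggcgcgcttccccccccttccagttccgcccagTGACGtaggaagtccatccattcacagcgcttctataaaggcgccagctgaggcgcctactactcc
The *Egr2* window held a CArG box, CCATATATGG, that began 72 bases before the start, and TGACG 2 times, once on each strand. Of the 5 *Egr2* starts in the table, 3 lie close together and share these matches, another (window chr10:67537316-67537565) had a different CArG box and no TGACG, and the farthest upstream (chr10:67535249-67535498) had neither. In the printed window the first TGACG overlapped the E-box CATGTG by the letters TG. The *Fos* window held TGACG 2 times and no CArG box. CArG boxes were found in 1.47% of RefSeq windows of this length and TGACG in 17.8%. Unlike those windows, the printed *Egr2* window was picked as the first by position of those with the most matches. The absence of letters from a window of this length says nothing of sites farther away.

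*Fos* and *Fosl1* were not called. *Fos*, on chromosome 12 from 85473890 to 85477273, had 5.15, 5.16, 7.67 and 4.17 CPM in vehicle and 7.41, 6.04, 9.54 and 6.04 CPM in AGX51. It was higher with AGX51 in 4 of 4 cultures, by log2 ratios of 0.23 to 0.53, while the groups overlapped. The log2 fold change was 0.49 (standard error 0.24, 95% interval -0.03 to 1.00, adjusted p = 0.138). With culture as a block the adjusted p was 0.0436 at a log2 fold change of 0.49, still under the fold threshold, and over 18 alternatives the adjusted p ranged from 0.0436 to 0.409.

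*Fosl1*, on chromosome 19 from 5447547 to 5455946, stood at 25.5, 24.7, 30.8 and 35.4 CPM in vehicle and at 23.6, 31.4, 26.7 and 47.5 CPM in AGX51. It was higher with AGX51 in cultures 2 and 4 and lower in cultures 1 and 3. The log2 fold change of 0.24 (standard error 0.21, 95% interval -0.22 to 0.70, adjusted p = 0.414) turned to -0.05 without AGX51 replicate 4 and to -0.31 in the fit with the fibroblast covariate (adjusted p = 0.845 and 0.14). AGX51 replicate 4 held both the highest *Fosl1* level and the highest fibroblast marker sum, 11600 CPM. Exons of *Fosl1* overlap those of *Ccdc85b* on the opposite strand, and use of strand in the counting was not given in the sources used here. The *Fos* to *Fosl1* ratio differed by 0.29 (standard error 0.41; exact permutation test, two-sided, p = 0.543, adjusted p = 0.633 over 7 pairs).

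**Figure D2:**
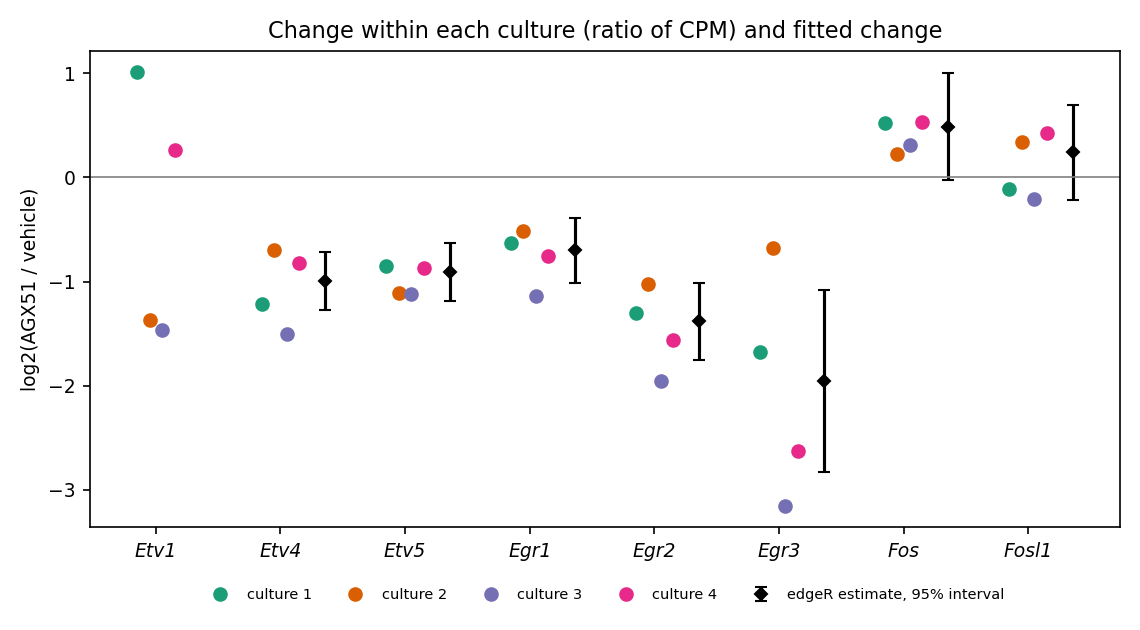
Log2 ratio of AGX51 to vehicle CPM in each culture (colored points) and the edgeR log2 fold change with its 95% interval (black; not fitted for *Etv1*). The points of *Etv4*, *Etv5* and the 3 *Egr* genes are all below 0, those of *Fos* are all above 0 by at most 0.53, and those of *Etv1* and *Fosl1* fall on both sides.

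Other ETS genes were not called. Of 15 other tested ETS genes 0 were called by edgeR, with 2 at an unadjusted p under 0.05 upward and 1 downward; limma-voom also called 0, and DESeq2 called *Erg*, an endothelial and hematopoietic factor, higher (0.64, adjusted p = 0.0317). The median log2 fold change of the 15 was 0.02, against 0.0006 over all tested genes. *Gabpa*, a regulator of mitochondrial and ribosomal genes, was at 0.36 (standard error 0.09, adjusted p = 0.0108), short of the fold threshold, and the SRF partner *Elk4* at -0.32 (adjusted p = 0.0622). *Erg* itself was at 0.63 (adjusted p = 0.0586) in edgeR and was called with culture as a block (0.60, adjusted p = 0.00439). *Elf1*, a ubiquitous ETS factor, was at 0.47 (adjusted p = 0.124). Neither the difference between the PEA3 genes and other ETS genes nor any other between lists was tested.

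The EGR partner genes included 2 called lower of 4 tested, where 9.93% of all tested genes were. *Nab2*, which encodes a corepressor that binds EGR proteins and is itself an EGR target, was at 43.7 to 48.9 CPM in vehicle and at 11.6 to 21.8 CPM in AGX51 (log2 fold change -1.28, standard error 0.16, adjusted p = 0.000103). *Egr4*, the remaining member of the zinc finger family, ranged from 28.8 to 35.0 CPM in vehicle and from 9.596 to 19.9 CPM in AGX51 (-1.12, standard error 0.18, adjusted p = 0.00065). For both genes the groups lay apart, which held in the same direction for 17.9% of tested genes. *Nab1*, the paralog of *Nab2*, was at -0.18 (adjusted p = 0.328), and *Wt1*, whose product binds similar sites, at -0.55 (adjusted p = 0.128).

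AP-1 genes outside the member list included several that rose. Of 7 tested, 4 were called higher, where 8.57% of all tested genes were. These were *Jdp2*, a repressor of AP-1 (log2 fold change 1.31, standard error 0.22), *Fosl2*, the closest relative of *Fosl1* (1.00, 0.17), *Jun* (0.79, 0.10) and *Jund* (0.66, 0.14), with adjusted p-values of 0.000838, 0.000863, 0.00013 and 0.00289. *Jund* dropped under the fold threshold without AGX51 replicate 2 (0.56) and with the fibroblast covariate (0.51). *Junb* was at -0.48 (adjusted p = 0.0227) and was called lower with that covariate (-0.69) and without AGX51 replicate 4 (-0.59).

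*Srf*, which encodes the factor that binds CArG boxes, ranged from 18.6 to 21.01 CPM in vehicle and rose to between 30.8 and 43.0 CPM in AGX51 (log2 fold change 0.99, standard error 0.12, adjusted p = 8.18e-05). Of its tested cofactors none was called by edgeR, DESeq2 or limma-voom, and *Elk4* alone had an unadjusted p under 0.05. The ERK substrates *Elk1*, *Elk3* and *Elk4* were at 0.06, 0.41 and -0.32, and *Mkl1* and *Mkl2*, the actin-regulated coactivators, at -0.13 and -0.11, with adjusted p-values from 0.0622 to 0.806. Other immediate-early genes were split, with 6 of 19 called higher and 4 lower, against 8.57% and 9.93% of all tested genes, and a median of 0.01. Higher were the stress-responsive *Atf3* (2.62, adjusted p = 1.16e-05), the small MAF factor *Maff* (1.32, adjusted p = 0.000464), *Klf4* (1.23, adjusted p = 0.00195), *Klf6*, *Cyr61* and *Ctgf*. Lower were *Nr4a1*, an orphan nuclear receptor (-0.90, adjusted p = 0.00236), *Arc*, *Ier5* and *Ier5l*. Some of these calls depended on single settings: *Klf6* and *Ctgf* were not called in the fit with the fibroblast covariate (0.31 and 0.46, adjusted p = 0.0612 and 0.149), and of 18 alternatives *Ier5l* lost its call in 8, *Ctgf* in 4, *Ier5* in 3 and *Klf6* in 2.

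Upstream of these factors, 1 of 21 tested genes of the RAS-ERK cascade was called, where 18.5% of all tested genes were called in either direction. It was *Rps6ka1*, which encodes the ERK-activated kinase RSK1, and it was lower (-0.98, standard error 0.15, adjusted p = 0.000341). The adaptor gene *Shc1* (-0.54) and the kinase gene *Mapk3* (0.47) passed in p but not in fold, with adjusted p-values of 0.00367 and 0.0308. Of 5 tested receptor genes 2 were called lower and 1 higher, where 9.93% and 8.57% of all tested genes were. *Gfra1*, the GDNF coreceptor, was lower at -0.70 (adjusted p = 0.00228), as was *Fgfr3* at -1.69 (0.0191), and *Egfr* was higher at 0.72 (0.0228). *Ret* was at -0.22 (0.0725) and *Fgfr1* at -0.01 (0.967). The calls of *Egfr* and *Fgfr3* were lost without culture 4 (0.69 and -1.11, adjusted p = 0.0614 and 0.105) and without any of 4 single libraries each, and with the fibroblast covariate none of the 3 receptor calls held (*Gfra1* -0.38, *Fgfr3* -1.56, *Egfr* 0.54).

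Known outputs of the same signaling were read next, against the 9.93% of all tested genes called lower. Of 10 tested ERK feedback genes 2 were lower, *Spry4* at -1.82 and the ERK phosphatase gene *Dusp6* at -1.53 (adjusted p = 1.02e-05 and 1.8e-05), and the median was -0.36. *Spred1* at -0.53 and *Dusp5* at -0.50 passed in p (0.00477 and 0.00326) but not in fold. Of 9 other tested genes that GDNF is known to regulate in cultured spermatogonia, 5 were lower, with a median of -0.66. They included *Bcl6b*, a repressor downstream of ETV5 in mouse germ cells, at -2.33 (adjusted p = 1.57e-06), the neurofilament gene *Nefm* at -1.56 (9.99e-06), *Mycn* at -1.33 (0.000491) and *Lhx1* at -2.09 (0.000586). The falls of several of these genes were known from earlier results of the same libraries, and the count is not independent of them.

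**Figure D3:**
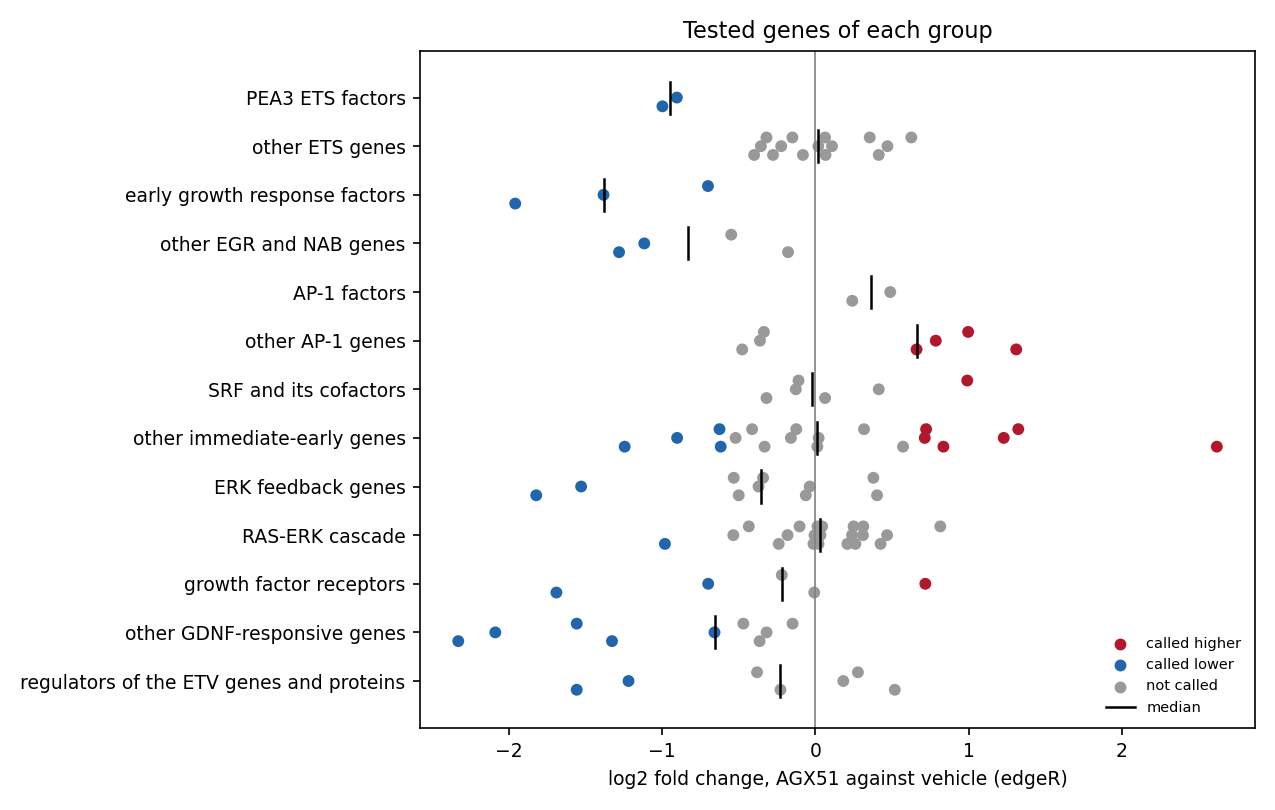
Log2 fold change of AGX51 against vehicle from edgeR (x axis) for every tested gene of the member families and of the related lists, with each median as a black bar. The tested PEA3 and early growth response genes are all called lower, other ETS genes center near 0 with none called, and AP-1 genes outside the members include 4 called higher.

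Genes that act on ETV factors themselves were also read. *Cic*, a repressor of *Etv1*, *Etv4* and *Etv5* that ERK relieves, was at -0.23 (adjusted p = 0.365), and its cofactors *Atxn1* and *Atxn1l* were at 0.28 and -0.38 (0.287 and 0.0905). *Rfwd2*, which encodes the ubiquitin ligase COP1 that degrades ETV proteins, was at 0.18 (0.34), and its partner *Det1* at 0.52 (0.012), under the fold threshold. *Trib1* and *Trib2*, pseudokinases that bring substrates to COP1, were called lower at -1.56 (standard error 0.25, adjusted p = 0.000634) and -1.22 (standard error 0.28, adjusted p = 0.00529). They were the 2 called of 7 tested in this list, where 9.93% of all tested genes were called lower. *Trib1* was at 7.20 to 11.6 CPM in vehicle and at 2.02 to 4.89 CPM in AGX51. *Trib2* was at 9.64 to 17.4 CPM in vehicle and at 3.47 to 8.53 CPM in AGX51. For both the groups did not overlap, which held in the same direction for 17.9% of tested genes.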

How the data were processed

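RNA from 4 cultures, each given vehicle or AGX51, was copied from poly(A) primers, amplified with a template switching oligo, tagmented and sequenced on a NextSeq instrument. Each deposited count is the output of the RNAsik pipeline as run by the authors. The submitters' processing notes name GRCm38 and, among tools, featureCounts, STAR, Salmon, limma and edgeR. The use of strand is not given in the sources used here. The authors derived the CPM columns from the same counts and library totals. Per the file headers, 5 further columns hold the authors' own comparison (fold change, FDR, average expression and p-value) and were not used. Names of 22 genes were restored from their IDs, and 17147 IDs matched GENCODE release M21.

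Counts were tested in R 4.3.3 with edgeR 4.0.16: filterByExpr (minimum count 10, minimum total 15) kept 14428 genes and left 2739 untested, libraries were scaled by TMM, and the quasi-likelihood test compared AGX51 with vehicle. The procedure was first run on simulated counts, drawn without shared cultures and with fewer changed genes than were called here. Ratios of members used counts plus 0.5. Libraries of a number share a letter in the labels and were taken to be from the same culture. With group means removed, they correlated at 0.11 to 0.44 and others at -0.29 to 0.10. Alternatives were DESeq2 1.42.0, limma-voom (limma 3.58.1, the tool of the study), RLE scaling, library totals, no filter, a replicate block, each library and culture 4 left out, a fibroblast marker covariate, equal depth (4303318 counts) and no fold threshold. Members and lists were chosen with earlier results of these data known. Named are all members, up to 4 genes of each list by adjusted p and all genes of lists of 7 or fewer; *Junb*, *Klf6*, *Cyr61*, *Ctgf*, *Arc*, *Ier5* and *Ier5l* were added after their values were seen. For 1 gene of the RAS-ERK list the value is not reported here.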

Additional observations from a re-analysis of the deposited data

How the results depend on the processing

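*Etv4*, *Etv5*, *Egr2* and *Egr3* were called lower in all 18 alternatives, with log2 fold changes of -1.09 to -0.85, -0.99 to -0.79, -1.499 to -1.03 and -2.21 to -1.28. *Egr1* kept its call in 16 of 18, the exceptions being -0.55 without vehicle replicate 3 and -0.53 with the fibroblast covariate; leaving out libraries gave -0.77 to -0.55. *Fosl1*, never called, reversed to -0.31 with that covariate and ran from -0.0485 to 0.40 over left-out libraries, and the *Etv4* to *Etv5* ratio ran from -0.23 to 0.0168. With culture as a replicate block *Etv5* was at -0.91 and *Egr2* at -1.39, no member's call changed, and of the list genes *Erg* alone changed its call (other ETS genes, 1 higher). Library totals alone turned the calls over all genes from 46.3% to 35.2% higher and shifted the median from 0.0006 to -0.07.

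Lists changed as follows. Other ETS genes called higher were 1 with DESeq2, 2 without culture 4 and 1 with the fibroblast covariate, and 0 to 1 over left-out libraries. Other AP-1 genes called lower were 1 with that covariate and 0 to 1 over left-out libraries. Immediate-early genes called lower ran from 2 to 5 over left-out libraries, and those called higher were 4 with the covariate. In the RAS-ERK cascade 2 were lower with library totals and 2 with the covariate. Of the receptors 0 were higher and 1 was lower without culture 4, 0 and 0 held with the covariate, 1 was lower at equal depth, and left-out libraries gave 0 to 1 higher and 1 to 2 lower. Of the regulators of ETV genes 1 was higher with the covariate and 1 at equal depth. With no fold threshold 2190 genes were higher and 2211 lower, among them 1 other ETS gene and 1 regulator of ETV genes higher, 1 other AP-1 gene lower, 2 of the cascade higher and 2 lower, and 5 feedback genes lower. The causes were not tested.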

Other observations

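Of the 5 called genes, 5 had their highest vehicle level in replicate 3 and 5 had their steepest fall in culture 3, where the log2 ratio of AGX51 to vehicle CPM was -1.4998 for *Etv4*, -1.12 for *Etv5*, -1.14 for *Egr1*, -1.95 for *Egr2* and -3.15 for *Egr3*. The smallest fall was in culture 2 for 4 of the 5, *Etv5* being the exception. The ratio of a culture has its vehicle level as denominator, so the high vehicle library and the steep fall are not separate observations. *Fos* was also highest in vehicle replicate 3, at 7.67 CPM.

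The genes most like each member over the 8 libraries, among tested genes whose log2 CPM averaged 3 or more, are given as a description only, since the treatment separates the libraries and pairs of them share a culture. For *Etv5* they were *Rbbp9*, the piRNA pathway gene *Asz1* and the pluripotency factor gene *Sox2* (Pearson r of log2 CPM 1.00, 0.99 and 0.99), each lower with AGX51 (-1.02, -1.15 and -1.501; adjusted p = 0.000147, 0.000103 and 0.000112 from edgeR). For *Etv4* they were *Camkk2*, *Cul7* and *Gba2* (r = 0.99, 0.99 and 0.98), for *Egr2* *Gm10332*, *Erlin2* and *Ubtf* (0.99 each), for *Egr1* *Dhx9*, *Tsn* and *Nsl1* (0.99, 0.98 and 0.98), and for *Egr3* *Uspl1*, *Ninl* and *Slc27a4* (0.99, 0.99 and 0.98). By edgeR *Cul7*, *Erlin2*, *Tsn*, *Nsl1*, *Uspl1* and *Slc27a4* were not called (log2 fold changes -0.41, -0.57, -0.46, -0.41, -0.27 and -0.58). The others named for *Etv4* and the *Egr* genes were called lower. *Fosl1* was closest to *Pold4*, *Creb3* and *Akt1s1* (r = 0.98, 0.98 and 0.97), and *Fos* to *Rsbn1l*, *Hus1* and *Cdkn2aip* (0.97, 0.97 and 0.96), of which none was called by edgeR. No gene was the nearest of more than 1 member.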
